A study of Homo sapiens with 6 samples.

Results

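Genes for enzymes of fatty acid oxidation, and for those that make, carry and cleave acyl-CoA were followed in LS 174T, a human colorectal adenocarcinoma cell line that makes mucins and serves as a goblet cell model. The members were taken by the start of their symbols (ACAD, ACOT, ACOX, ACSL, ACSM, ACSF, ACAA, ACAT, HADH, ECH, ECHDC, ECI, CPT, CRAT, CROT and ETF). A symbol needed at least 60 reads over the 6 libraries. This gave 46 genes out of 24462 symbols in the count tables. Of the 58 symbols of these names, 12 were under the minimum, and 2 further symbols of the pattern are not analysed here. Among those 12, ACOT6, ACOT12, ACSM2A, ACSM2B, ACSM4, ACSM5 and ACSM6 had no read, and ACADL, ACSM1, ACOT4, ACOXL and ECHDC3 had 9, 7, 4, 2 and 1 reads. The members just inside the minimum were ACSL6 with 66 reads and CPT1C with 77 reads.

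Cells given 4 mM propionate for 4 h (n = 3 libraries) were compared with untreated control cells (n = 3 libraries). All were of passages 21 to 23, and each library was made from 500 ng of total RNA. The title of the study places the response of the mucin gene MUC2 downstream of a route of propionate breakdown that resembles β-oxidation, which is the question these genes bear on. No label gives separate cultures for the libraries within a group. The p-values therefore measure the spread among these libraries alone, and that spread may be technical.

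Fatty acids enter metabolism once a synthetase has joined them to coenzyme A. Long acyl chains cross into mitochondria as carnitine esters, while short ones such as propionate can enter directly. In β-oxidation an acyl-CoA dehydrogenase, a hydratase, a hydroxyacyl-CoA dehydrogenase and a thiolase then shorten the chain, peroxisomes run a parallel route that starts with an oxidase, and thioesterases release the free acid again. Colonocytes are known for burning short-chain fatty acids made by gut bacteria.

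Library totals ranged from 11603288 to 12746170 reads, so that 3 reads made 0.235 to 0.259 CPM (reads scaled to a common library total), a limit that covers counting error only. All 9 epithelial markers examined were above 1 CPM on average, and their summed level was 5280 to 6160 CPM with propionate, against 4410 to 5360 CPM in control. Within that list the keratins KRT18 and KRT19 rose (log2 fold changes 0.33 and 0.44), the intestinal factors CDX1 and CDX2 fell (-0.24 and -0.39), and the 5 others did not pass. Of 7 goblet cell markers, 6 were above 1 CPM, and the sums were 918 to 983 CPM with propionate and 919 to 981 CPM in control. Of 4 endothelial markers 3 had no read, and their sum was 0 CPM with propionate and 0.0846 to 0.172 CPM in control. Summed markers of fibroblasts were 4.98 to 7.30 CPM with propionate and 2.88 to 6.29 CPM in control, with 2 of 5 above 1 CPM. Those of leukocytes, also with 2 of 5 above 1 CPM and with CD3E at no read, were 16.1 to 18.0 CPM with propionate and 13.1 to 19.1 CPM in control. Whether the epithelial markers have a part in the results was not tested, and a change in the share of cells of a type cannot be told apart from a change in RNA per cell.

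Propionate was followed by mostly small changes in both directions. Of the 46 genes, 10 rose and 4 fell (adjusted p under 0.05 by edgeR's quasi-likelihood test, with the Benjamini-Hochberg method over 13605 genes). This is 21.7% higher and 8.7% lower, beside 17.2% higher and 17% lower among all genes tested. The 10 rises and the 21.7% include CPT1C, which met the read minimum only through the propionate libraries. Its call supports no count. The rises were ACSF2 and CPT1C, each over 3-fold, and CRAT, ACADS, ACSL3, ACADSB, CPT2, ACSL1, ECI2 and ACOT7, between 1.23-fold and 1.47-fold. The falls were ACOT1, ACOT2, ECHDC2 and ECHDC1, between 1.19-fold and 1.79-fold. The median log2 fold change was 0.03 over the 46 genes and -0.01 over all genes tested, with 27 of the 46 above 0 and 19 below. For 12 of the 46 genes, CPT1C among them, all 3 propionate libraries lay above all 3 control libraries, and for 8 they lay below. Among all genes tested the shares were 22.4% and 22.7%. Shares and medians are set beside those of all genes as a description, with no test.

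**Figure D1:**
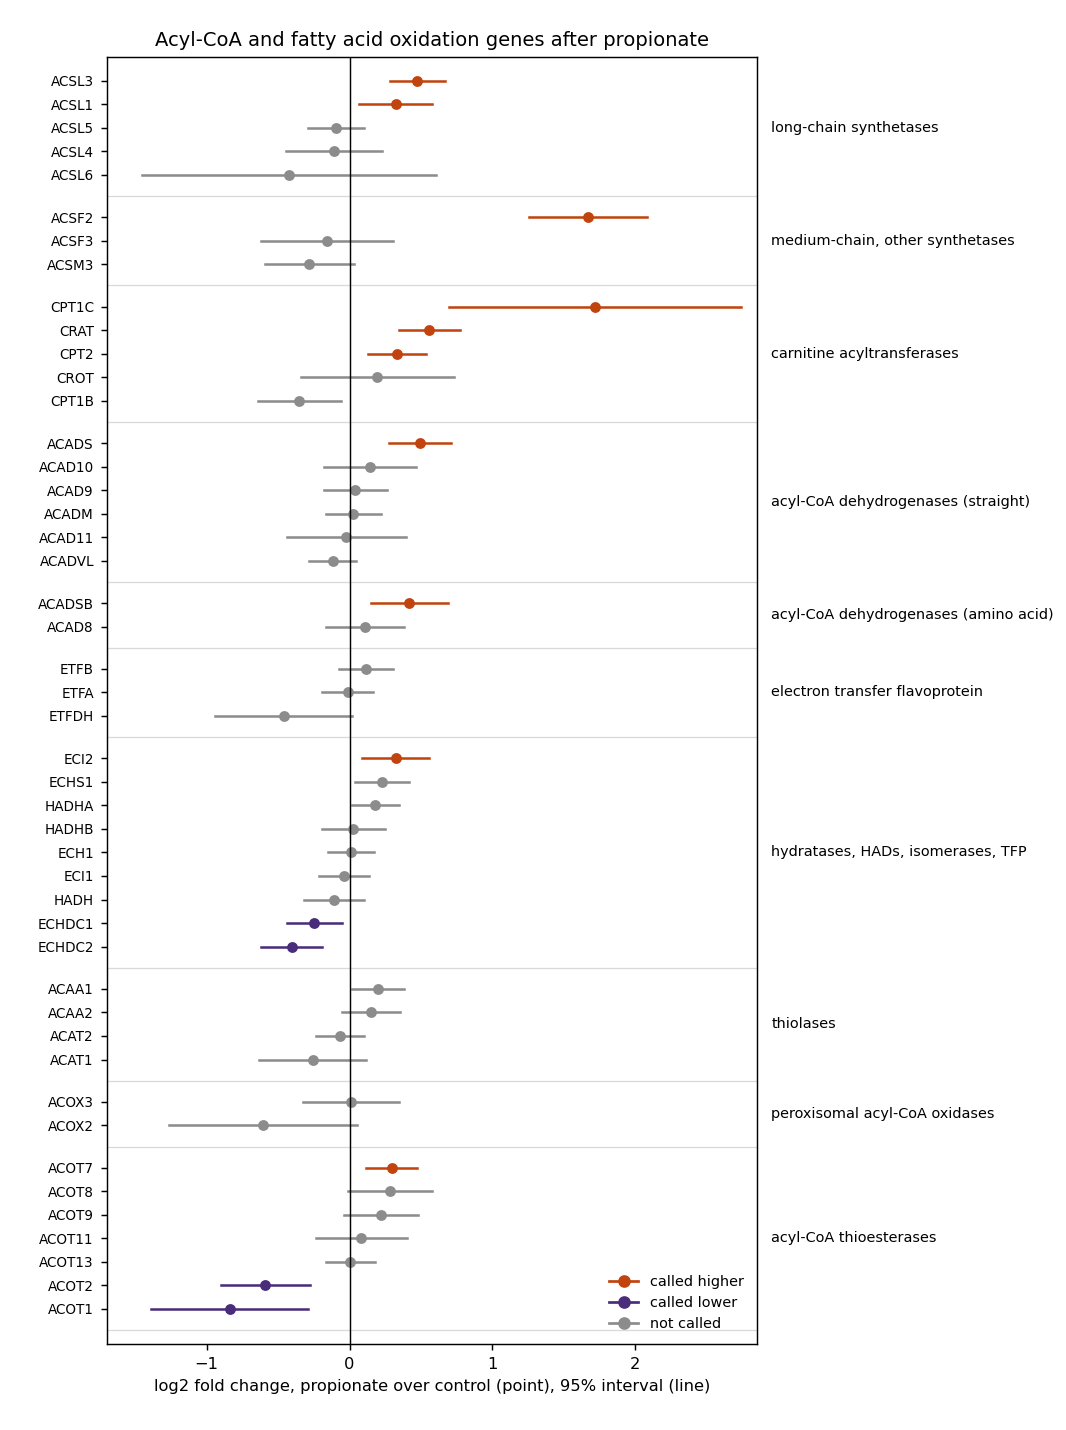
Log2 fold change (propionate over control, horizontal axis) of the 46 genes with its 95% interval, by role, from 3 propionate and 3 control libraries. ACSF2 and CPT1C stand apart at 1.67 and 1.72, and the other points lie between -0.84 and 0.56.

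**Figure D2:**
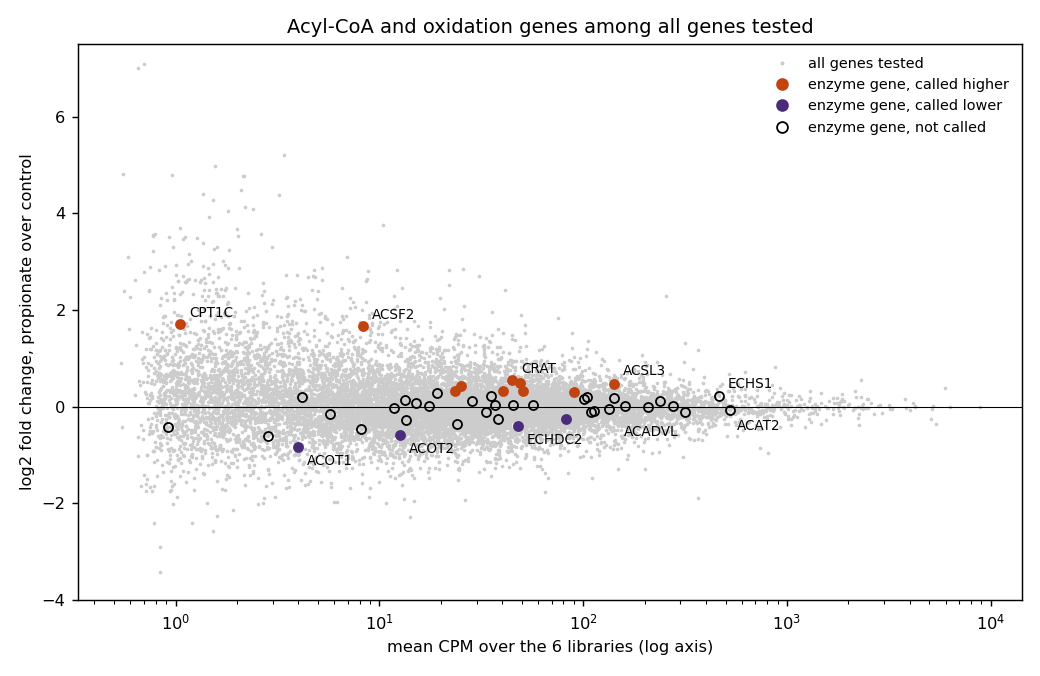
Log2 fold change against mean CPM over the 6 libraries (log axis) for all 13605 genes tested (grey) and the 46 genes (coloured where called, open where not). The most read genes of the set, ACAT2 and ECHS1, lie at -0.07 and 0.23, and CPT1C is among its least read.

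Replicate numbers of the titles were taken to pair the libraries, since the deviations of same-numbered libraries correlated. A fit with the number as a block called 15 of the 46 genes higher and 7 lower, beside 21.9% higher and 22.6% lower among all genes tested. It kept all 10 rises, CPT1C among them, and all 4 falls. The genes it added are named with their roles.

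Promoters are shown for 4 of the 5 genes whose call held under every alternative processing tried (ACSF2, ACSL3, ACOT2 and ECHDC2). For each gene symbol 1 RefSeq start was taken, the first listed. Other starts of a gene were not searched, so a window need not hold the start used in these cells. Each window holds the 250 bases before and 50 bases after the start taken, on GRCh38.p14, 5′ to 3′ along the gene's strand. Capitals mark GGGCGG or its reverse complement CCGCCC, the GC box bound by factors of the Sp family. ACSF2 lies at chr17:50468079-50468378, plus strand, ACSL3 at chr2:222860786-222861085, plus strand, ACOT2 at chr14:73568809-73569108, plus strand and ECHDC2 at chr1:52921725-52922024, minus strand.
ACSF2: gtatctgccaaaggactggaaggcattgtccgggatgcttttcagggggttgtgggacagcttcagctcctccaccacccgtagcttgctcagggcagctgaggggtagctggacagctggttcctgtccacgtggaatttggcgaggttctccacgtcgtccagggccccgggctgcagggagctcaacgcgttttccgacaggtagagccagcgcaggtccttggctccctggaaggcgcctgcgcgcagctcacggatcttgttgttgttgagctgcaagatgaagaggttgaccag
ACSL3: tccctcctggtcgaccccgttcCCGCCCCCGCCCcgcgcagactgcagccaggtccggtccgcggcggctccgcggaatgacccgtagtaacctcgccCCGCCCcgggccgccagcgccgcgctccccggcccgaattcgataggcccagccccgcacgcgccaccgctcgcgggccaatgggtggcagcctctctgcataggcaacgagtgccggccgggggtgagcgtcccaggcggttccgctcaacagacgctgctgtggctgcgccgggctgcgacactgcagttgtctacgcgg
ACOT2: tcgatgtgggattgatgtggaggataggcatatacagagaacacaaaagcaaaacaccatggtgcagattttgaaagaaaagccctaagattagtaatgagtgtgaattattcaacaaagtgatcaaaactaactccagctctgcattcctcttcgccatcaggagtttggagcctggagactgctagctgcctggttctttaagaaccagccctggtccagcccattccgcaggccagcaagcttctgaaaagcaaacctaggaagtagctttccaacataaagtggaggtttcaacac
ECHDC2: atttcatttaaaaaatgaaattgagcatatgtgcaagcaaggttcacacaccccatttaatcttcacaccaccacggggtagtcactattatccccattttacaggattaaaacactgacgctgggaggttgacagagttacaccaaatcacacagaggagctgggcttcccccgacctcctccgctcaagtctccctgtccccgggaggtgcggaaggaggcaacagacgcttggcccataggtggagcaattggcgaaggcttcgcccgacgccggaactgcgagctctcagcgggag
The window of ACSL3 held GC boxes and was 74.0% G or C, while those of ACSF2 (60.3%), ECHDC2 (53.0%) and ACOT2 (45.0%) held no GC box. CHAD lies over exons of ACSF2 on the opposite strand, and whether the window taken for ACSF2 lies within CHAD was not tested. The values of that window therefore need not describe the promoter of ACSF2 used in these cells. Of the 46 genes, 37 had a promoter in the RefSeq table. GGGCGG, searched on both strands, was in 29 of the 37 (78.4%), beside 44.6% of all 27305 promoters of the same length. Those 27305 promoters were not limited to genes read in these cells, so they are no matched background for the 46 genes. GGGCGG was in 8 of 9 promoters of genes that rose, in 1 of 3 of genes that fell and in 20 of 25 of genes not called. CPT1C, whose call supports no count, is among the 9 and among the 8. AGGTCA, the core site of nuclear receptors, was in 4 of 37 (10.8%) beside 13.9% of all promoters. TCAAGGTCA, the site of estrogen-related receptors, which contains AGGTCA, was in 0 of 37 beside 0.359%. TGACGTCA, the cAMP response element, was in 2 of 37 (5.41%) beside 1.98%, and TACGTG, a hypoxia response core, in 1 of 37 (2.70%) beside 3.33%. Median GC content of the windows was 66.3% for genes that rose, with CPT1C included. It was 53.0% for genes that fell and 68.0% for genes not called, beside 58.3% for all promoters.

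Among the enzymes that activate fatty acids, ACSF2 had the smallest adjusted p of the whole set. ACSF2 encodes a mitochondrial synthetase for medium-chain acids. It had 13.5, 13.8 and 10.5 CPM in the propionate libraries, against 4.55, 3.59 and 3.75 CPM in the control libraries. Every propionate library was far above every control, and the level was 3.18-fold higher (log2 fold change 1.67 with SE 0.197, adjusted p = 3.07e-06 by edgeR, 95% interval 1.26 to 2.08). The gene CHAD lies over exons of ACSF2 on the opposite strand, and it had no read. With the trend of each library with GC content removed in the blocked fit, the log2 fold change of ACSF2 was 1.51 (edgeR adjusted p = 5.38e-07). The other synthetases of this kind did not pass. ACSM3, a medium-chain synthetase, had 13, 10.7 and 12.7 CPM in the propionate libraries, against 15.7, 14.7 and 13.9 CPM in the control libraries. Its propionate libraries lay below all controls (log2 fold change -0.28 with SE 0.15, adjusted p = 0.157 by edgeR), and so did those of ERI2, a gene on the opposite strand over its exons, which fell (log2 fold change -0.41, edgeR adjusted p = 0.0395). ACSF3, the malonyl-CoA synthetase, had a log2 fold change of -0.16 (95% interval -0.62 to 0.30).

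Of 5 long-chain synthetases, 2 rose and none fell, beside 17.2% higher and 17% lower among all genes tested. ACSL3, which sits at the endoplasmic reticulum and on lipid droplets, had 146, 173 and 176 CPM in the propionate libraries, against 108, 128 and 119 CPM in the control libraries. The groups did not overlap, and ACSL3 was 1.39-fold higher (log2 fold change 0.48 with SE 0.0924, adjusted p = 0.000538 by edgeR). ACSL1, the main form of liver and fat, had 24.4, 26 and 27.8 CPM in the propionate libraries, against 19.6, 19.7 and 23.2 CPM in the control libraries. Its groups were separate by a small margin, and it was 1.25-fold higher (log2 fold change 0.32 with SE 0.123, adjusted p = 0.0494 by edgeR). This call was lost in 10 of 18 alternatives, among them DESeq2 (adjusted p = 0.0863), limma-voom (adjusted p = 0.0508) and leaving out any of 5 of the 6 libraries. ACSL4, ACSL5 and ACSL6 did not pass, with log2 fold changes of -0.11, -0.10 and -0.42. ACSL5, the form typical of intestinal epithelium, had a 95% interval of -0.29 to 0.10, while that of the rarely read ACSL6 was -1.45 to 0.60.

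Of 5 carnitine acyltransferases, CRAT and CPT2 rose, beside 17.2% higher among all genes tested. The rarely read CPT1C also passed the test, but it met the read minimum only through the propionate libraries and is left out of this count. The summed level of the 5 did not overlap between the groups. CRAT, which moves acetyl and propionyl groups between coenzyme A and carnitine, had 49.7, 53.8 and 55.9 CPM in the propionate libraries, against 33.4, 35.8 and 39.1 CPM in the control libraries. All propionate libraries were above all controls, and CRAT was 1.47-fold higher (log2 fold change 0.56 with SE 0.102, adjusted p = 0.000306 by edgeR). In the blocked fit with GC trend removed, its log2 fold change was 0.29 (edgeR adjusted p = 0.00604). PPP2R4, on the opposite strand over part of its exons, had 89.8 ± 8.82 CPM with propionate and 99.9 ± 0.790 CPM in control (SD, n = 3 each). CPT2, the inner membrane enzyme that turns long-chain acylcarnitines back into acyl-CoA, had 52.2, 60.8 and 56.6 CPM in the propionate libraries, against 44.7, 46.5 and 43.5 CPM in the control libraries. It was 1.26-fold higher with no overlap (log2 fold change 0.33 with SE 0.0972, adjusted p = 0.0123 by edgeR), but missed the threshold without propionate replicate 2 (adjusted p = 0.0624).

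CPT1C, the form of neurons with little transferase activity, was rarely read and passed the test. It had 23, 16 and 21 reads in the propionate libraries, against 9, 3 and 5 reads in the control libraries. With 60 reads in the propionate libraries together and 17 in the control libraries, it met the minimum of 60 reads only through the group where it was high. Its call is therefore partly set by that minimum and supports no count. On the CPM scale it had 1.78, 1.29 and 1.78 CPM in the propionate libraries, against 0.787, 0.257 and 0.417 CPM in the control libraries. The fitted rise was 3.28-fold (log2 fold change 1.72 with SE 0.489, adjusted p = 0.0103 by edgeR), with a wide 95% interval of 0.69 to 2.74. Without control replicate 2, the library with 3 reads, the log2 fold change was 1.42 and the call was lost (adjusted p = 0.0568). CPT1B, the muscle form, did not pass and had 22.8, 19.6 and 20.8 CPM in the propionate libraries, against 23.9, 33 and 23.8 CPM in the control libraries. The propionate libraries lay below all controls (log2 fold change -0.35 with SE 0.139, adjusted p = 0.0578 by edgeR), and the blocked fit called it lower (adjusted p = 0.0232). CPT1B shares 94.1% of its 50-base words with the read-through transcript CHKB-CPT1B, so it is uncertain which of both the reads belong to. That transcript fell (26.2 ± 1.42 CPM with propionate and 34.3 ± 4.58 CPM in control, log2 fold change -0.39, edgeR adjusted p = 0.0160), and the sum of both was 50.7, 45.0 and 46.2 CPM with propionate, against 56.5, 72.5 and 54.5 CPM in control. CROT, the peroxisomal carnitine octanoyltransferase, had a log2 fold change of 0.20 (95% interval -0.34 to 0.73).

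The first step of mitochondrial β-oxidation showed a rise at the short-chain end. ACADS, the dehydrogenase of short straight chains, had 54.5, 62 and 55.2 CPM in the propionate libraries, against 40.9, 44.8 and 36.2 CPM in the control libraries. The groups did not overlap, and ACADS was 1.41-fold higher (log2 fold change 0.49 with SE 0.105, adjusted p = 0.00117 by edgeR). Its transcript had the highest GC content of the set, 64.6%, and in the blocked fit with GC trend removed the log2 fold change was 0.18 and the call was lost (adjusted p = 0.0633). The dehydrogenases of longer chains did not pass. ACADVL, for very long chains and the most read of them, had 298, 303 and 309 CPM in the propionate libraries, against 347, 312 and 329 CPM in the control libraries. Its propionate libraries lay below all controls by a small margin (log2 fold change -0.12 with SE 0.0772, adjusted p = 0.251 by edgeR, 95% interval -0.28 to 0.04), and the fit with block and GC trend removed called it lower (log2 fold change -0.32, adjusted p = 2.11e-05). ACADM, for medium chains, had a log2 fold change of 0.03 (95% interval -0.17 to 0.22). The log2 fold changes of ACAD9, ACAD10 and ACAD11 were 0.04, 0.14 and -0.02.

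Of the pair of dehydrogenases of branched amino acid breakdown, 1 rose, beside 17.2% higher among all genes tested. ACADSB, which acts on an intermediate of isoleucine, a source of propionyl-CoA, had 28.7, 29.3 and 28.4 CPM in the propionate libraries, against 18.2, 21 and 25.5 CPM in the control libraries. The propionate libraries lay close together and above the scattered controls, and ACADSB was 1.34-fold higher (log2 fold change 0.42 with SE 0.129, adjusted p = 0.0167 by edgeR). Without control replicate 1 or control replicate 2 it missed the threshold (adjusted p = 0.0975 and 0.0511). ACAD8, the valine counterpart, had 27.8, 31.5 and 29.7 CPM in the propionate libraries, against 31.2, 21.9 and 29.4 CPM in the control libraries, and the groups overlapped (log2 fold change 0.11 with SE 0.13, adjusted p = 0.559 by edgeR).

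No gene of electron transfer flavoprotein, which takes the electrons of all these dehydrogenases, or of its oxidoreductase passed the test. ETFB, a subunit gene, had 235, 281 and 228 CPM in the propionate libraries, against 222, 246 and 218 CPM in the control libraries, and the groups overlapped (log2 fold change 0.11 with SE 0.0902, adjusted p = 0.352 by edgeR). ETFA, the other subunit gene, had a log2 fold change of -0.01 (95% interval -0.19 to 0.16). ETFDH, which passes the electrons on to ubiquinone, had a log2 fold change of -0.46 (95% interval -0.94 to 0.02, adjusted p = 0.127), and the blocked fit called it lower (adjusted p = 0.0466), but not with the GC trend also removed (adjusted p = 0.0894). PPID, on the opposite strand over exons of ETFDH, fell (log2 fold change -0.33, edgeR adjusted p = 0.0133).

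Among 9 genes of the middle steps, 1 rose and 2 fell, beside 17.2% higher and 17% lower among all genes tested. The 6 others did not pass. ECI2, an isomerase for unsaturated chains in peroxisomes and mitochondria, had 44.5, 41.6 and 49.2 CPM in the propionate libraries, against 34.4, 32.3 and 41.5 CPM in the control libraries. The groups were separate by under 1 CPM, and ECI2 was 1.25-fold higher (log2 fold change 0.32 with SE 0.113, adjusted p = 0.0339 by edgeR), a call lost without any of 4 of the 6 libraries (adjusted p between 0.0693 and 0.146). ECHDC2, a mitochondrial relative of the hydratases, had 37.7, 44.4 and 41.2 CPM in the propionate libraries, against 53.7, 58.7 and 50.6 CPM in the control libraries. It was 1.32-fold lower with no overlap (log2 fold change -0.40 with SE 0.102, adjusted p = 0.00467 by edgeR). ECHDC1, which removes ethylmalonyl-CoA, a side product of lipid synthesis, had 72.5, 79.2 and 72.9 CPM in the propionate libraries, against 96.5, 90.1 and 80.1 CPM in the control libraries. It was 1.19-fold lower (log2 fold change -0.25 with SE 0.0923, adjusted p = 0.0452 by edgeR), and the call was lost in 9 of 18 alternatives, among them DESeq2 (adjusted p = 0.0543), upper-quartile factors (adjusted p = 0.0719), the GC correction and leaving out any of 4 of the 6 libraries.

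ECHS1, the short-chain hydratase, was the most read of these genes. It had 450.4, 564 and 486 CPM in the propionate libraries, against 418, 466 and 398 CPM in the control libraries. The groups overlapped and the test was missed (log2 fold change 0.23 with SE 0.0903, adjusted p = 0.0588 by edgeR), while the blocked fit called it higher (adjusted p = 0.000552), and with the GC trend also removed the log2 fold change was -0.01. HADHA, the trifunctional protein subunit with hydratase and dehydrogenase activity, had 146, 156 and 147 CPM in the propionate libraries, against 128, 134 and 134 CPM in the control libraries. The groups did not overlap (log2 fold change 0.18 with SE 0.0791, adjusted p = 0.0868 by edgeR), and the blocked fit called it higher (adjusted p = 0.0103). HADHB, the thiolase subunit of that protein, had a log2 fold change of 0.03 (95% interval -0.19 to 0.25). Log2 fold changes were -0.11 (-0.32 to 0.10) for HADH, the short-chain hydroxyacyl dehydrogenase, and -0.04 (-0.21 to 0.13) and 0.01 (-0.15 to 0.17) for the isomerases ECI1 and ECH1.

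No thiolase passed the test. ACAA1, the peroxisomal thiolase, had 102, 118 and 116 CPM in the propionate libraries, against 98.8, 96.7 and 97.2 CPM in the control libraries. Its propionate libraries were above all controls (log2 fold change 0.20 with SE 0.0861, adjusted p = 0.0831 by edgeR), and so were those of DLEC1, on the opposite strand over its exons (log2 fold change 0.44, edgeR adjusted p = 0.0512). The blocked fit called ACAA1 higher (adjusted p = 0.0136), and with the GC trend also removed its log2 fold change was 0.0046. ACAT2, the cytosolic enzyme at the start of sterol synthesis and the most read of the 46 genes, had 505, 537 and 498 CPM in the propionate libraries, against 535, 584 and 493 CPM in the control libraries. The groups overlapped (log2 fold change -0.07 with SE 0.0808, adjusted p = 0.568 by edgeR, 95% interval -0.23 to 0.10). TCP1 and SOD2 lie on the opposite strand over exons of ACAT2, with log2 fold changes of -0.07 and -0.10. TCP1 had 576, 592 and 568 CPM in the propionate libraries, against 600, 647 and 569 CPM in the control libraries. Whether counting used strand is not given, so reads of these genes may be counted under ACAT2. ACAT1, the mitochondrial enzyme of ketone and isoleucine metabolism, had a log2 fold change of -0.26 (95% interval -0.63 to 0.12) and was called lower in the blocked fit (adjusted p = 0.0209), but not with the GC trend also removed (adjusted p = 0.114). ACAA2, the mitochondrial thiolase, had a log2 fold change of 0.15 (-0.05 to 0.35) and was called higher there (adjusted p = 0.0499).

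Neither of the peroxisomal oxidases ACOX2 and ACOX3 passed the test. ACOX2, the oxidase of bile acid intermediates and branched chains, was rarely read and had 1.47, 2.41 and 2.88 CPM in the propionate libraries, against 2.97, 3.59 and 3.67 CPM in the control libraries. Its propionate libraries lay below all controls, without passing the test (log2 fold change -0.60 with SE 0.314, adjusted p = 0.150 by edgeR). ACOX3, which acts on branched chains, had 17.7, 21.7 and 13.2 CPM in the propionate libraries, against 17.5, 18.7 and 16.1 CPM in the control libraries. The groups overlapped, with a wide spread among the propionate libraries (log2 fold change 0.01 with SE 0.161, adjusted p = 0.966 by edgeR, 95% interval -0.33 to 0.35).

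Thioesterases return acyl-CoA to free acid. Of the 7 genes, 1 rose (14.3%) and 2 fell (28.6%), beside 17.2% higher and 17% lower among all genes tested. ACOT2, the mitochondrial form for long chains, had 10.3, 10.1 and 9.9 CPM in the propionate libraries, against 14, 15.8 and 15.8 CPM in the control libraries. The groups were clearly apart, and ACOT2 was 1.5-fold lower (log2 fold change -0.59 with SE 0.149, adjusted p = 0.00457 by edgeR). ACOT1, its cytosolic neighbour copy, had 2.71, 2.89 and 2.96 CPM in the propionate libraries, against 5.07, 4.11 and 6.17 CPM in the control libraries. It was 1.79-fold lower with no overlap (log2 fold change -0.84 with SE 0.262, adjusted p = 0.0178 by edgeR), and missed the threshold without control replicate 3 (adjusted p = 0.0955). ACOT1 shares 54.6% of its 50-base words with ACOT2, so reads of one may be counted under the other. Their sum was 13.0, 12.9 and 12.9 CPM with propionate, against 19.1, 19.9 and 22.0 CPM in control, a ratio of 0.638 that does not depend on how the reads were divided.

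ACOT7, a cytosolic form for long chains that is abundant in brain, had 97.5, 97.2 and 104 CPM in the propionate libraries, against 81.6, 77.6 and 84.8 CPM in the control libraries. It was 1.23-fold higher with no overlap (log2 fold change 0.29 with SE 0.085, adjusted p = 0.0114 by edgeR). In the blocked fit with GC trend removed, the log2 fold change was 0.03 and the call was lost (adjusted p = 0.761), as it was without control replicate 2 (adjusted p = 0.0507). ACOT8, the peroxisomal form, had 18.4, 23.7 and 20.8 CPM in the propionate libraries, against 15, 18.7 and 17.8 CPM in the control libraries, with overlap (log2 fold change 0.28 with SE 0.14, adjusted p = 0.127 by edgeR), and was called higher in the blocked fit (adjusted p = 0.0492) but not with the GC trend also removed (log2 fold change 0.06, adjusted p = 0.690). ACOT13, the most read thioesterase, had 149.5, 167 and 163 CPM in the propionate libraries, against 167, 156 and 155 CPM in the control libraries. The groups overlapped (log2 fold change 0.01 with SE 0.0812, adjusted p = 0.967 by edgeR, 95% interval -0.16 to 0.18). ACOT9 and ACOT11 had log2 fold changes of 0.22 and 0.08. In the blocked fit with GC trend removed ACOT9 was called higher (log2 fold change 0.25, edgeR adjusted p = 0.0439).

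**Figure D3:**
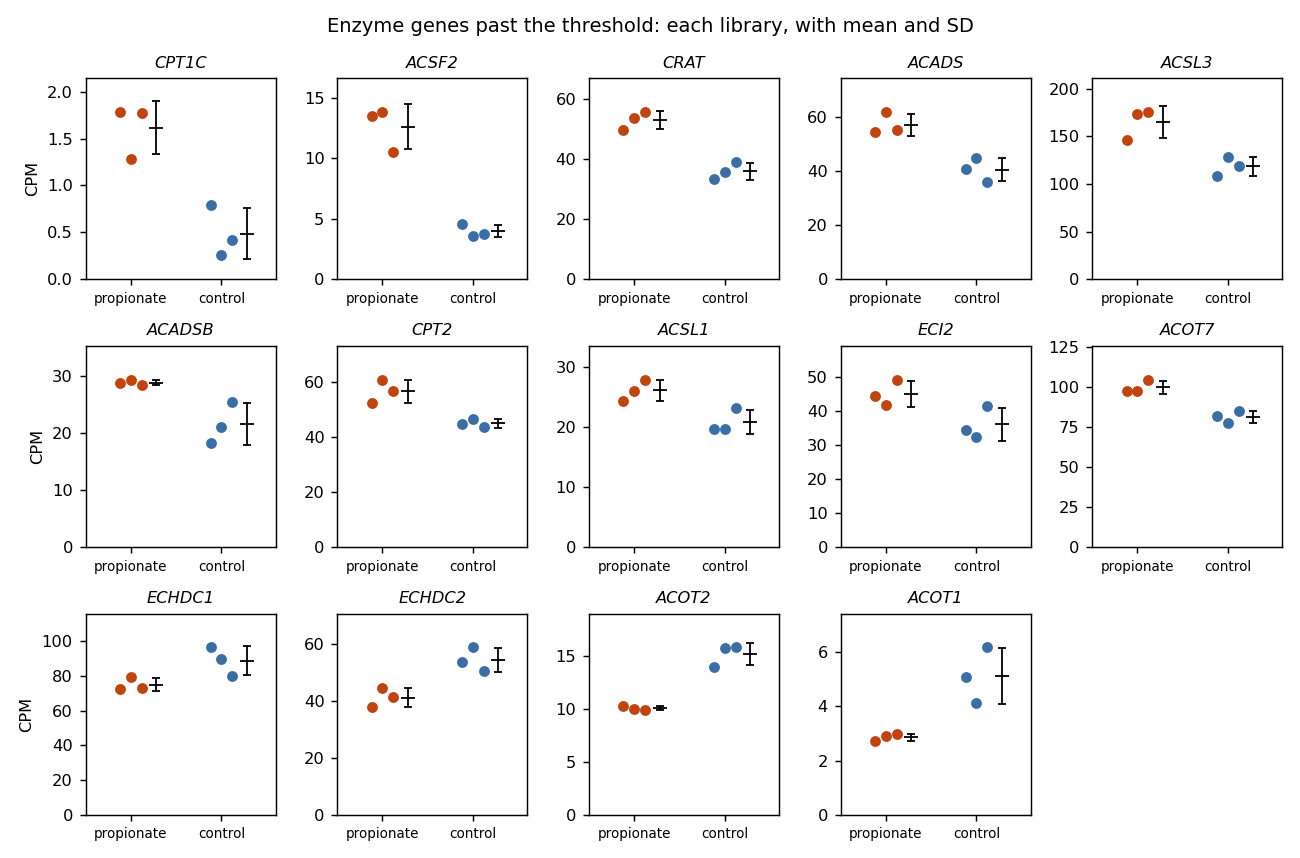
CPM in each of 3 propionate and 3 control libraries (points), with mean and SD (bars), for the 14 genes that passed the test; each vertical axis starts at 0. In all 14 the groups are separate, widely for ACSF2 and narrowly for ECI2 and ECHDC1.

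For the 32 genes that were not called, log2 fold changes ran from -0.60 to 0.28, with adjusted p between 0.0578 and 0.967. The 95% interval of 24 of these genes lay within 1.5-fold in both directions, so larger changes of them are outside the intervals. The 8 with wider intervals were ACSL6, CROT, ACOX2, ETFDH, ACSF3, ACSM3, CPT1B and ACAT1.

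Summed over each role, a description that gives most weight to the most read genes, 3 roles had all propionate libraries above all controls. Carnitine acyltransferases summed to 136.8 ± 4.93 CPM with propionate and 112.3 ± 6.41 CPM in control (SD, n = 3 each), a ratio of 1.22. The medium-chain and other synthetases gave 30.2 ± 1.79 CPM with propionate and 24.8 ± 1.63 CPM in control, also 1.22, and ACSF2 was the 1 of them that rose. The dehydrogenases of amino acid breakdown gave 58.5 ± 2.21 CPM with propionate and 49.1 ± 6.03 CPM in control (1.19). Long-chain synthetases overlapped, at 333.6 ± 26.3 CPM with propionate and 292.3 ± 15.0 CPM in control (1.14). Ratios of the peroxisomal oxidases (0.950), dehydrogenases of straight chains (0.987), thiolases (0.992), electron transfer flavoprotein (1.03), middle steps (1.05) and thioesterases (1.07) lay closer to 1, with overlap in each.

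**Figure D4:**
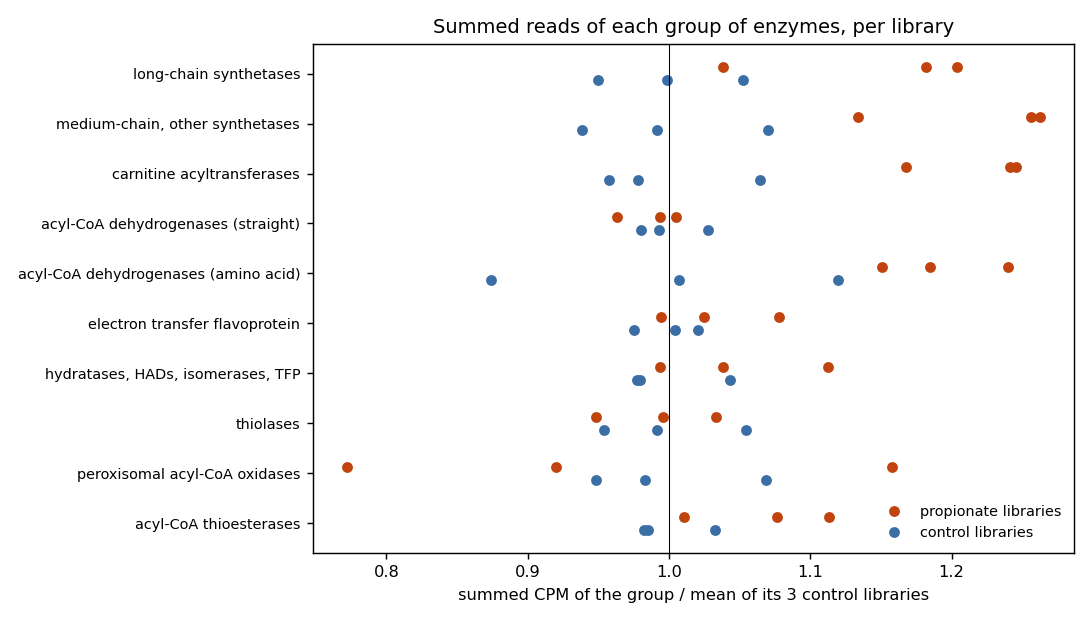
Summed CPM of each role in each library, divided by the mean of the 3 control libraries of that role (horizontal axis), with propionate libraries above control libraries in each row. Carnitine acyltransferases, medium-chain and other synthetases, and amino acid dehydrogenases are separate, and the straight-chain dehydrogenases and thiolases lie around 1.

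The libraries did not all move alike. The median over the 46 genes of the log2 level relative to the control mean was -0.0242, 0.123 and 0.0873 in propionate replicates 1, 2 and 3, against -0.00457, 0.0242 and -0.00275 in control replicates 1, 2 and 3. Propionate replicate 1 thus lay just below the control range, and the other propionate libraries above it. Without control replicate 2, 6 genes were called higher, and 6 of the 14 calls were lost (CPT1C, ACADSB, ACSL1, ECI2, ACOT7 and ECHDC1).

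Some calls changed with the GC content of the transcripts. The transcripts of genes that rose, CPT1C among them, had a median GC content of 54.2%. It was 57.3% for those that fell, 49.2% for those not called and 48.9% for all genes tested. With the trend of each library with GC content removed in the blocked fit, 11 of the 46 genes were called higher and 7 lower, beside 18.7% higher and 25.6% lower among all genes tested. Of the 14 calls 11 remained, CPT1C among them, and those of ACADS, ACOT7 and ECHDC1 were lost. ACADVL, ECI1 (log2 fold change -0.29, edgeR adjusted p = 0.000301) and ECH1 (-0.18, adjusted p = 0.00581) were among those called lower only with the trend removed.

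**Figure D5:**
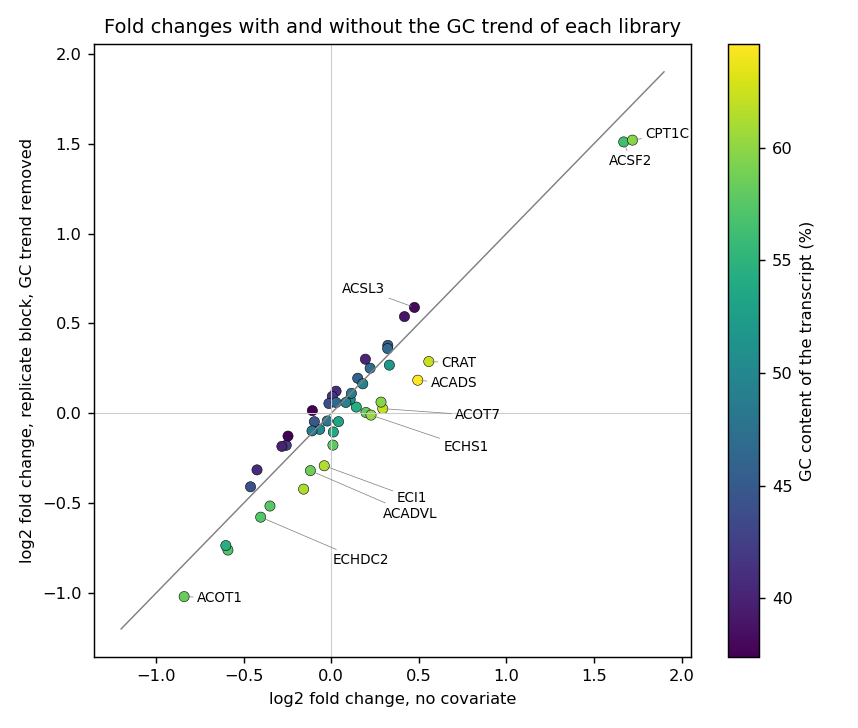
Log2 fold change of the 46 genes without covariate (horizontal axis) and with the replicate block and the GC trend of each library removed (vertical axis); colour gives transcript GC content and the line marks equal values. GC-rich transcripts such as ACADS, ACOT7 and ECI1 lie below the line, and ACSF2, CPT1C and ACSL3 stay far above 0.

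Genes of the same pathways outside these families were listed beside them: of 51 genes, 47 were tested, 9 rose (19.1%) and 5 fell (10.6%), beside 17.2% higher and 17% lower among all genes tested. Of the genes of uptake and binding, 1 of 11 rose and 2 fell. SLC27A1, a fatty acid transport protein with synthetase activity, had 15.3, 14.1 and 15.5 CPM in the propionate libraries, against 4.9, 5.56 and 4.08 CPM in the control libraries, and was 3.08-fold higher (log2 fold change 1.62 with SE 0.177, adjusted p = 1.24e-06 by edgeR). SLC27A2, its very long chain relative, was 1.45-fold lower (edgeR adjusted p = 0.00159), and ACBD5, a peroxisomal acyl-CoA binding protein, 1.68-fold lower (adjusted p = 8.98e-05). On the list of carnitine supply and shuttle, 2 of 5 genes rose, and 1 of them is a carrier of amino acids. SLC25A20, the carnitine-acylcarnitine carrier of the inner membrane, had 12.2 ± 2.36 CPM with propionate and 8 ± 0.438 CPM in control (SD, n = 3 each; log2 fold change 0.60 with SE 0.179, adjusted p = 0.0136 by edgeR). SLC25A29, the mitochondrial carrier of the same family that carries basic amino acids, had 84.5 ± 6.74 CPM with propionate and 45 ± 5.28 CPM in control (log2 fold change 0.91 with SE 0.103, adjusted p = 1.95e-06 by edgeR). TMLHE, the first enzyme of carnitine synthesis, had 4.19, 2.65 and 4.15 CPM in the propionate libraries, against 4.46, 4.54 and 5.5 CPM in the control libraries. Its propionate libraries lay below all controls, without passing the test (log2 fold change -0.40 with SE 0.259, adjusted p = 0.252 by edgeR).

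The shares of all genes tested, 17.2% higher and 17% lower, also stand beside the counts of the lists that follow. Of 12 auxiliary and peroxisomal genes, 2 rose and 2 fell. EHHADH, the bifunctional enzyme of the middle steps in peroxisomes, was 1.45-fold higher (edgeR adjusted p = 0.0247), and HSD17B10, the hydroxyacyl dehydrogenase of isoleucine breakdown after ACADSB, 1.2-fold higher (adjusted p = 0.0209). DECR2, a peroxisomal reductase for unsaturated chains, was 1.38-fold lower (adjusted p = 0.00643), and AMACR, the racemase of branched chains, 1.61-fold lower (adjusted p = 0.00775). Of 7 genes of short-chain activation and ketone bodies, 2 rose and 1 fell. ACSS2, the cytosolic acetyl-CoA synthetase, had 25.5, 27.1 and 27.3 CPM in the propionate libraries, against 15.7, 16.4 and 15.8 CPM in the control libraries, and was 1.67-fold higher (log2 fold change 0.74 with SE 0.121, adjusted p = 0.000105 by edgeR). ACSS1, its mitochondrial counterpart, was 1.27-fold higher with overlapping groups (edgeR adjusted p = 0.0248), and BDH1, the hydroxybutyrate dehydrogenase, 1.26-fold lower (adjusted p = 0.00354). Of 12 genes of fatty acid synthesis 2 rose and none fell: the desaturase gene SCD (1.32-fold, adjusted p = 0.00107) and the lipid regulator SREBF1 (1.32-fold, adjusted p = 0.00120). CD36, BBOX1, ABCD2 and ACSS3 had too few reads to be tested.

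By exon positions in GENCODE 29, 15 of the 46 genes have a gene of the count tables on the opposite strand over their exons, among them 4 of the 14 called (ACSF2, CPT2, CRAT and ECI2). Whether counting used strand is not given in the sources used here, so reads of such partners cannot be told apart without strand. None of the tested partners of these 4 passed the test: C1orf123 (CPT2), PPP2R4 (CRAT) and C6orf201 (ECI2) had log2 fold changes of 0.11, -0.15 and 0.25.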

How the data were processed

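Gene expression was measured by RNA sequencing in 3 propionate and 3 control libraries of LS 174T cells, grouped by their titles. The deposited tables hold raw counts of reads for each gene symbol, which the authors did not normalize. Bowtie2, edgeR and the builds hg19 and GRCh37 are named in the submitters' processing notes. How reads were counted, with or without strand, and on which annotation is not given in the sources used here. Per the labels, libraries were made with a Lexogen Quant-Seq kit, which reads transcript ends, but the catalogue number may be of another kit. No levels of different genes were therefore tested against each other. Rankings by reads and sums over roles describe reads alone. Symbols on several lines (286, none of them a member) were summed.

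Counts were tested with edgeR 4.0.16 in R 4.3.3 (quasi-likelihood test, TMM factors, filterByExpr, no covariate, two-sided) over 13605 genes, with Benjamini-Hochberg adjusted p under 0.05. CPM values of the genes use the TMM factors, while those of the cell type markers and the limit of 3 reads use plain library totals. Depth was 11603288 to 12746170 reads per library. The fits were also tested on simulated data. Results of 2 genes of the name pattern are not reported here. The members, roles, lists and the naming rule were chosen with earlier results of these data known. The naming rule gives the libraries of every gene past the test, of the 5 nearest misses and of the most read gene of each role. Other genes are given by log2 fold change, and ACOX2 was added after its values were seen.

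Replicate numbers come from the marks in the titles. Deviations from the group means of same-numbered libraries correlated at 0.240, 0.396 and 0.442 over 9286 genes, and those of unlike numbers between -0.354 and 0.00985. Deviations cancel within a group, so positive values for same numbers push those of unlike numbers down. The second range is therefore no separate support for pairing. From the first values the numbers were taken to pair the libraries, although the labels name no common day or batch. A fit with the number as a block was run. Alternatives were RLE and upper-quartile factors, library totals, limma-voom (limma 3.58.1), DESeq2 1.42.0, other filters and thresholds, other read minimums, thinning, leaving out each library, and the block with a trend in GC content removed (splines with 4 degrees of freedom). GC content, shared words and exon overlaps used GENCODE 29 transcripts, and promoters used RefSeq GRCh38.p14. No protein sequences were used here.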

Additional observations from a re-analysis of the deposited data

How the results depend on the processing

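Of the 14 calls, those of ACSF2 (log2 fold change 1.51 to 1.78), CRAT, ACSL3, ACOT2 and ECHDC2 held under all 18 alternatives. Over the 26 named genes, 396 values kept direction and side of the threshold, 39 missed it, 20 newly passed and 13 reversed. Role sums were computed only for the other scaling factors, library totals, thinning and each omitted library. There they moved by less than the replicate spread in 100 of 100 values. They were not computed with the block or with the GC trend removed. An adjusted p under 0.01 left 4 of the 46 genes higher and 2 lower, with 1424 of all genes lower. The replicate block gave 7 of the 46 lower and lost no call. With transcript GC trend removed as well, 7 of the 46 and 3479 of all genes were lower, and ECHS1 had -0.0101 on the log2 scale. With the trend of the last 500 bases, an alternative chosen after the data were seen, 11 of the 46 and 3630 of all genes were lower, 8 of the 46 were higher, and ETFB had -0.148. Leaving out 1 library gave 6 to 10 of the 46 higher, 3 to 4 lower, 1984 to 2080 of all genes higher, 1864 to 1999 lower, and a median log2 fold change of 0.0247 to 0.0648. The 6 came without control replicate 2. Over the same omissions ACAD8 ran from -0.0328 (without control replicate 2) to 0.205, ACOT13 from -0.0223 to 0.0494, below 0 in 4 of them, and ACOX3 from -0.167 (without propionate replicate 2) to 0.176. ACOX3 also had -0.011 under limma-voom, -0.0058 with the block, -0.104 with the transcript GC trend removed as well and -0.00366 after thinning. The cause of these changes was not tested. Read minimums of 10 and 300 gave 10 and 9 higher, 4 and 3 lower. CPT1C and ACSL6, with 77 and 66 reads, are limited by depth. The numbers of higher genes given here include CPT1C wherever it met the read minimum and passed the test.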
